A study of Mus musculus with 18 samples.

Results

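The genes of intraflagellar transport, the BBSome and the ciliary transition zone were followed across sorted cells of the mouse embryo at embryonic day 7.5. They were picked by gene symbol, from a list drawn up with earlier results of these data known, and 51 of the 24498 genes in the deposited table matched. They comprised 11 subunits of IFT-B, 6 of IFT-A, 5 transport motor subunits, 8 BBS genes and their partner Arl6, 18 genes of the transition zone, and the GTPase genes Arl3 and Arl13b. All 51 passed the filter on low values, a normalised read count of at least 10 in at least 3 libraries, as did 14711 genes in all.

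The cells came from embryos in which both alleles of FoxA2, a forkhead factor of endoderm, node and notochord, were fused to the red fluorescent protein tagRFP through a knock-in. In FoxA2-WT-tagRFP embryos the fused protein was otherwise intact (WT below). In FoxA2-deltaHx-tagRFP embryos it also lacked 10 amino acids of an α-helix (ΔHx below), which the series describes as critical for activating targets. Each genotype was sorted into a High gate, brighter than heterozygous cells, a Middle gate (Mid), between autofluorescence and the heterozygous maximum, and a Negative gate (Neg). Each of the 6 groups had 3 biological replicates. About 10 homozygous embryos of a mixed C57Bl6/J and CD-1 background, not sexed and with the extra-embryonic portion removed, were pooled for sorting. The gates hold mixtures, so in every comparison between them fewer cells of a type and less RNA per cell cannot be told apart.

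Cilia are built by moving cargo along microtubules. Kinesin-2 carries IFT trains, which contain IFT-A and IFT-B, outward to the tip, and dynein-2 carries them back. The BBSome is an adaptor that removes membrane proteins from the cilium, and the transition zone at the cilium base limits what enters and leaves. These parts serve primary and motile cilia alike, whereas axonemal dyneins, radial spokes and tektins belong chiefly to motile ones. At this stage the pit cells of the node carry motile cilia whose flow sets the left-right axis, and many other embryonic cells carry a primary cilium.

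Promoters of these genes are shown first, because RFX factors bind the X-box, a pair of inverted arms long known from ciliary genes, and because the sorted cells differ in a forkhead factor. RefSeq promoters (GRCm38.p6), from 250 bases before to 50 after a transcript start, were found for 44 of the 51 genes. Both strands were searched. A paired X-box was taken as GTTNCC and GGNAAC with 0 to 3 bases between them. It need not contain a single arm counted below, since N may be any base. The paired X-box occurred at 5 of the 44 genes (11.4%), Bbs7, Ift57, Mks1, Tctn1 and Tctn3, against 0.804% of all 32851 promoters and 1.11% of the 11157 tested genes with a promoter. All 5 matches contain GTTGCC, so these genes are counted again under that arm. A gene with several promoters counted once if any of them matched, so the like-for-like share is that of the tested genes. The single arm GTTGCC occurred at 22 of the 44 genes, against 15.2% of the tested genes and 12.5% of all promoters. The arm GTTACC occurred at 9 (20.5%), against 7.48% and 7.21%. The forkhead core TGTTTGC occurred at 1 gene, Wdr19 (2.27%), against 4.52% and 5.07%, and TGTTTAC at 0, against 3.13% and 3.65%. These counts describe letters in a window and do not show binding. The 5 promoters with a paired X-box and the 1 with a forkhead core are printed 5′ to 3′ on the strand of the gene, with the matched letters in capitals:

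Bbs7: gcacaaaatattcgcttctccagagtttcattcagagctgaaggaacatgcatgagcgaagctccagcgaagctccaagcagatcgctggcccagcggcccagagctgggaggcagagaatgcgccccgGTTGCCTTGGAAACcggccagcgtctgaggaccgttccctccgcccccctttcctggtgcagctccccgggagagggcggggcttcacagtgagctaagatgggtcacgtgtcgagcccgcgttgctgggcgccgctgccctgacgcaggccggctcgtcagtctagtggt
Ift57: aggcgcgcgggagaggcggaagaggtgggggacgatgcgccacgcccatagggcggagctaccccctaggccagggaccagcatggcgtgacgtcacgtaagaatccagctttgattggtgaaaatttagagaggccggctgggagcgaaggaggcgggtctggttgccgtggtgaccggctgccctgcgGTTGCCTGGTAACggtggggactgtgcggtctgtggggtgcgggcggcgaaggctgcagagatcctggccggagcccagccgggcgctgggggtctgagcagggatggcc
Mks1: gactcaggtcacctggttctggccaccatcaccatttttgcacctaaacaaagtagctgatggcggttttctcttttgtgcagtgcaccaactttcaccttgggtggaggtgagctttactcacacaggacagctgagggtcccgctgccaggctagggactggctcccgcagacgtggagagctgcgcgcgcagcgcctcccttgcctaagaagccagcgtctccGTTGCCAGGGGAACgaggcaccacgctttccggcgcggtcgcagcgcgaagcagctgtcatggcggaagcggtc
Tctn1: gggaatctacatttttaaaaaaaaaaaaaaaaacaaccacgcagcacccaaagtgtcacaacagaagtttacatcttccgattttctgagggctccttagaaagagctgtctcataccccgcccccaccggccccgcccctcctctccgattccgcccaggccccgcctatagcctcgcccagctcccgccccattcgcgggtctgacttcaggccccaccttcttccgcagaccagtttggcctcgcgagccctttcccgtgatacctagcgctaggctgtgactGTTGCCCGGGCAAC
Tctn3: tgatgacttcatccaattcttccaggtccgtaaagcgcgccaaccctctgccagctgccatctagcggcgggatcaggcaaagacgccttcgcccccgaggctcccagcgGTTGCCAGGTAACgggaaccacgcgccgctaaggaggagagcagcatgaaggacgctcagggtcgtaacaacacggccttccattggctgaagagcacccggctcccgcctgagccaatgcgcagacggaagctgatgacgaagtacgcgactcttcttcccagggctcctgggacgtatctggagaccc
Wdr19: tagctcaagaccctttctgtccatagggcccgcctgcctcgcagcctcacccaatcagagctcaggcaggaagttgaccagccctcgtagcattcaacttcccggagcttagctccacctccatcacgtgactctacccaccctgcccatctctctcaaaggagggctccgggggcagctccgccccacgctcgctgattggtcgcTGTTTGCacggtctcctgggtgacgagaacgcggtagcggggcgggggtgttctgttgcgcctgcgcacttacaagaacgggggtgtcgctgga

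These windows lie at chr3:36613340-36613639 (minus strand, Bbs7), chr16:49699044-49699343 (plus, Ift57), chr11:87852965-87853264 (plus, Mks1), chr5:122264411-122264710 (minus, Tctn1), chr19:40612182-40612481 (minus, Tctn3) and chr5:65199446-65199745 (plus, Wdr19). The paired X-box began 121 bases before the start in Bbs7, 60 before in Ift57, 24 before in Mks1 and 140 before in Tctn3, and in Tctn1 it lay inside the transcribed end of the window. Of these 6 genes, all of them called higher in High than in Neg in both genotypes (values below), the log2 change in WT ran from 0.77 in Bbs7 to 2.73 in Tctn1. The median change over the 26 genes with either arm was 1.26, and over the 18 without it was 0.90, given as a description with no test.

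Between 12302196 and 17194136 reads per library fell in genes. The number of genes with a read ran from 15649 to 17917 and was lowest in ΔHx High replicate 3. The ribosomal precursor Rn45s took 23.7% to 44.0% of the reads in genes. Foxa2, which defines the gates, ranged from 1556 to 2483 over the 6 High libraries, from 547 to 1229 over the Mid and from 20.3 to 62.5 over the Neg libraries. This level cannot show the deletion, since the ΔHx allele still carries the rest of the gene. All values below are normalised read counts, that is reads divided by 1 size factor per library, and each change is a difference of log2(value + 1), with its SE from limma. A gene was called at a Benjamini-Hochberg adjusted p under 0.05 over all genes tested.

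The first comparison was between the High and Neg gates of WT embryos. Most of the transport and transition zone genes were higher in High: 44 of 51 rose and 0 fell, where 22.6% of all tested genes rose and 21.8% fell. The median log2 change of the 51 was 1.14, against 0.02 for all genes, and 29 of the 44 rose at least 2-fold and 5 at least 4-fold. By complex, 10 of 11 IFT-B genes rose, 5 of 6 IFT-A, 4 of 5 motor genes, 7 of the 9 in the BBS group with Arl6, 16 of 18 transition zone genes, and both Arl3 and Arl13b. The summed level of the 51 genes was 29815 to 36757 in the WT High libraries and 14406 to 15663 in WT Neg, with no overlap. In ΔHx the corresponding sums were 31899 to 37218 and 15084 to 15691.

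**Figure D1:**
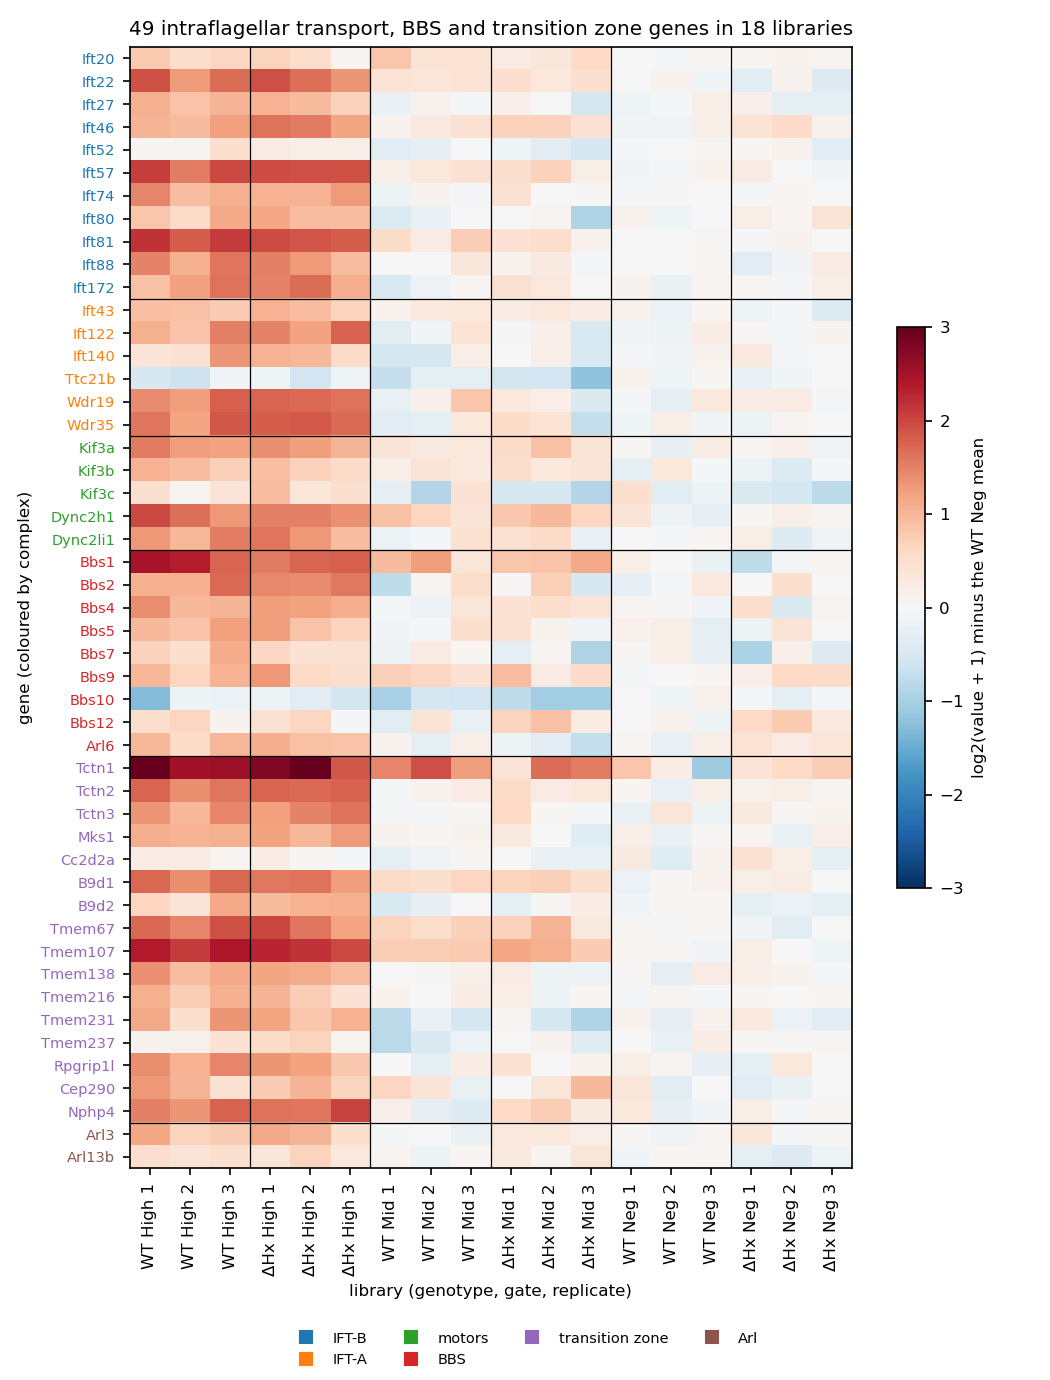
Levels of 49 of the 51 genes (rows, coloured by complex) in 18 libraries (columns), as log2(value + 1) minus the mean of the 3 WT Neg libraries. Red is above that mean and blue below, and the colours end at a difference of 3. The 6 High libraries on the left are red for most genes, whereas Mid and Neg differ little.

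The High libraries stood above all others for most of the genes. In 39 of the 51, each of the 6 High libraries exceeded each of the 12 Mid and Neg libraries, a pattern found in 8.16% of all tested genes. In WT alone, 44 genes had High libraries entirely above Neg libraries (27.7% of all genes) and 1, Bbs10, entirely below (27.0%).

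Among the IFT-B genes, Ift81 and Ift74, whose products form the tubulin-binding part of the train, were both high. Ift74 had the highest mean of the 51 genes, with 2412, 1665 and 1855 in WT High, 788, 948 and 855 in WT Mid and 846, 904 and 891 in WT Neg. Only the High libraries stood apart. Its log2 change from Neg to High was 1.15 (SE 0.13, adjusted p = 8.82e-07) in WT and 1.12 (SE 0.13, adjusted p = 1.4e-06) in ΔHx. Ift81 was 1428, 1118 and 1364 in WT High and 313, 314 and 323 in WT Neg, a change of 2.03 (SE 0.14, adjusted p = 1.05e-09). Ift57, a peripheral subunit, was 1309, 908 and 1242 in WT High, 351, 388 and 419 in WT Mid and 293, 306 and 338 in WT Neg. In ΔHx it was 1220, 1187 and 1177 in High and 370, 309 and 293 in Neg. The change was 1.87 (SE 0.15, adjusted p = 9.55e-09) in WT and 1.89 (SE 0.15, adjusted p = 1.06e-08) in ΔHx.

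Of the remaining IFT-B genes all but Ift52 rose. Ift22, a small GTPase-like subunit, Ift88, a core subunit needed for cilium assembly, Ift172, which acts in turnaround at the tip, and Ift46 rose by 1.07 to 1.62 on the log2 scale in WT. Ift27, the GTPase that links trains to BBSome exit, rose by 0.98 and Ift80 by 0.85. Ift20, which also works at the Golgi, had the smallest call of the complex, with a change of 0.65 (SE 0.15, adjusted p = 0.00177). Ift52, a core subunit, was 583, 588 and 795 in WT High against 540, 558 and 593 in WT Neg. Its groups overlapped and it was not called, with a change of 0.20 and a 95% interval of -0.11 to 0.51.

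In IFT-A, Wdr35, a beta-propeller subunit, was 1288, 958 and 1557 in WT High, 336, 344 and 529 in WT Mid and 390, 486 and 403 in WT Neg. In ΔHx the High values were 1504, 1529 and 1370, the Mid values 619, 566 and 258 and the Neg values 380, 453 and 421. High was above both other gates in every library of both genotypes, and Mid overlapped Neg. The change from Neg to High was 1.55 (SE 0.25, adjusted p = 5.44e-05) in WT and 1.81 (SE 0.25, adjusted p = 1e-05) in ΔHx. Wdr19 and Ift122, core subunits of the complex, rose by 1.49 and 1.15 in WT, and Ift43 and Ift140 by 0.84 and 0.71.

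Ttc21b, the gene of a peripheral IFT-A subunit, did not follow the rest of its complex. It was 387, 355 and 511 in WT High, 338, 449 and 451 in WT Mid and 580, 499 and 553 in WT Neg, with 1 High library among the Neg values. Its log2 change was -0.40 (SE 0.19, adjusted p = 0.0911). In ΔHx it was 499, 366 and 498 in High and 473, 517 and 546 in Neg, overlapping groups, with a change of -0.18 (adjusted p = 0.45).

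Of the motors, Kif3a and Kif3b, the motor chains of heterotrimeric kinesin-2, rose by 1.34 and 0.90 in WT, and Dync2li1, a light intermediate chain of dynein-2, by 1.28. Dync2h1, the dynein-2 heavy chain, was 2086, 1673 and 1313 in WT High against 690, 478 and 448 in WT Neg, an increase of 1.65 (SE 0.17, adjusted p = 2.02e-07). Kif3c, an alternative partner of Kif3a, was low throughout, with 162, 122 and 151 in WT High and 161, 92.3 and 103 in WT Neg, which overlapped. It was not called in WT (0.31, 95% interval -0.30 to 0.93) and was called in ΔHx (1.17, SE 0.30, adjusted p = 0.00341). The difference between those changes, 0.86, did not pass (SE 0.42, adjusted p = 0.998). Of its exonic bases, 35.3% overlap a gene on the opposite strand, 1110002L01Rik, and the library type keeps no strand.

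Among the BBSome genes, Bbs1, a subunit that binds Arl6, moved most. It was 375, 349 and 226 in WT High, 130, 161 and 87.2 in WT Mid and 76.4, 67.9 and 58.0 in WT Neg, so that the 3 gates did not overlap. The change from Neg to High was 2.19 (SE 0.27, adjusted p = 2.01e-06) in WT and 1.94 (SE 0.27, adjusted p = 9.65e-06) in ΔHx. Bbs2, Bbs4, Bbs5, Bbs7 and Bbs9, the other subunits here, rose by 0.77 to 1.27 in WT, and Arl6, the GTPase that recruits the BBSome to membranes, by 0.84.

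Bbs10 and Bbs12 encode chaperonin-like proteins that help the BBSome assemble and are not part of the finished complex. Neither rose. Bbs10 was 68.3, 153 and 151 in WT High against 171, 155 and 187 in WT Neg, all 3 High libraries lying below, with a change of -0.55 (SE 0.26, adjusted p = 0.0982). Leaving out WT High replicate 2 or 3 turned it into a called fall, as leaving out replicate 3 did for Ttc21b. Bbs12 was 167, 180 and 123 in WT High against 116, 127 and 104 in WT Neg, overlapping groups, with a change of 0.42 and an interval of -0.10 to 0.94.

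In the transition zone, Tmem107, a membrane protein of the MKS complex, was 997, 820 and 1030 in WT High, 321, 319 and 332 in WT Mid and 201, 195 and 179 in WT Neg. In ΔHx the High values were 941, 859 and 760, the Mid values 427, 403 and 327 and the Neg values 220, 194 and 176. The 3 gates were apart in both genotypes, with High highest. Its change from Neg to High was 2.30 (SE 0.14, adjusted p = 2.17e-10) in WT and 2.11 (SE 0.14, adjusted p = 7.89e-10) in ΔHx.

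Tctn1, a tectonic needed for Hedgehog signalling, had the largest change in WT and the lowest mean level over all libraries. It was 162, 109 and 112 in WT High, 52.1, 72.6 and 44.5 in WT Mid and 33.3, 21.3 and 8.15 in WT Neg, with no overlap between gates but a wide spread within Neg. The change was 2.73 (SE 0.45, adjusted p = 6.7e-05) in WT and 1.99 (SE 0.45, adjusted p = 0.00142) in ΔHx. Hvcn1, on the opposite strand, overlaps 19.0% of its exonic bases. Tctn2 and Tctn3 rose by 1.59 and 1.27 in WT.

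Other transition zone genes also rose. Tmem67 (meckelin), B9d1 and Rpgrip1l, a scaffold at the base, rose by 1.70, 1.61 and 1.30 in WT. Mks1, Tmem138, Tmem216, Tmem231, B9d2 and Cep290, a protein of the links between microtubules and membrane, rose by 0.72 to 1.15. Cc2d2a was 169, 173 and 154 in WT High against 175, 112 and 156 in WT Neg, and Tmem237 was 508, 521 and 636 against 468, 410 and 550. The groups overlapped for both, and their intervals of -0.26 to 0.63 and -0.15 to 0.60 leave out a 2-fold rise.

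Nphp4, which works at the cilium base, was 369, 324 and 439 in WT High, 144, 108 and 97.6 in WT Mid and 161, 109 and 122 in WT Neg. In WT only High stood apart from the other gates. It rose from Neg to High by 1.53 (SE 0.20, adjusted p = 5.51e-06) in WT and by 1.67 (SE 0.20, adjusted p = 2.05e-06) in ΔHx. The ciliary GTPase gene Arl3, whose product releases lipid-anchored cargo, rose by 0.86, and Arl13b, its activator, by 0.45 (SE 0.14, adjusted p = 0.0124).

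**Figure D2:**
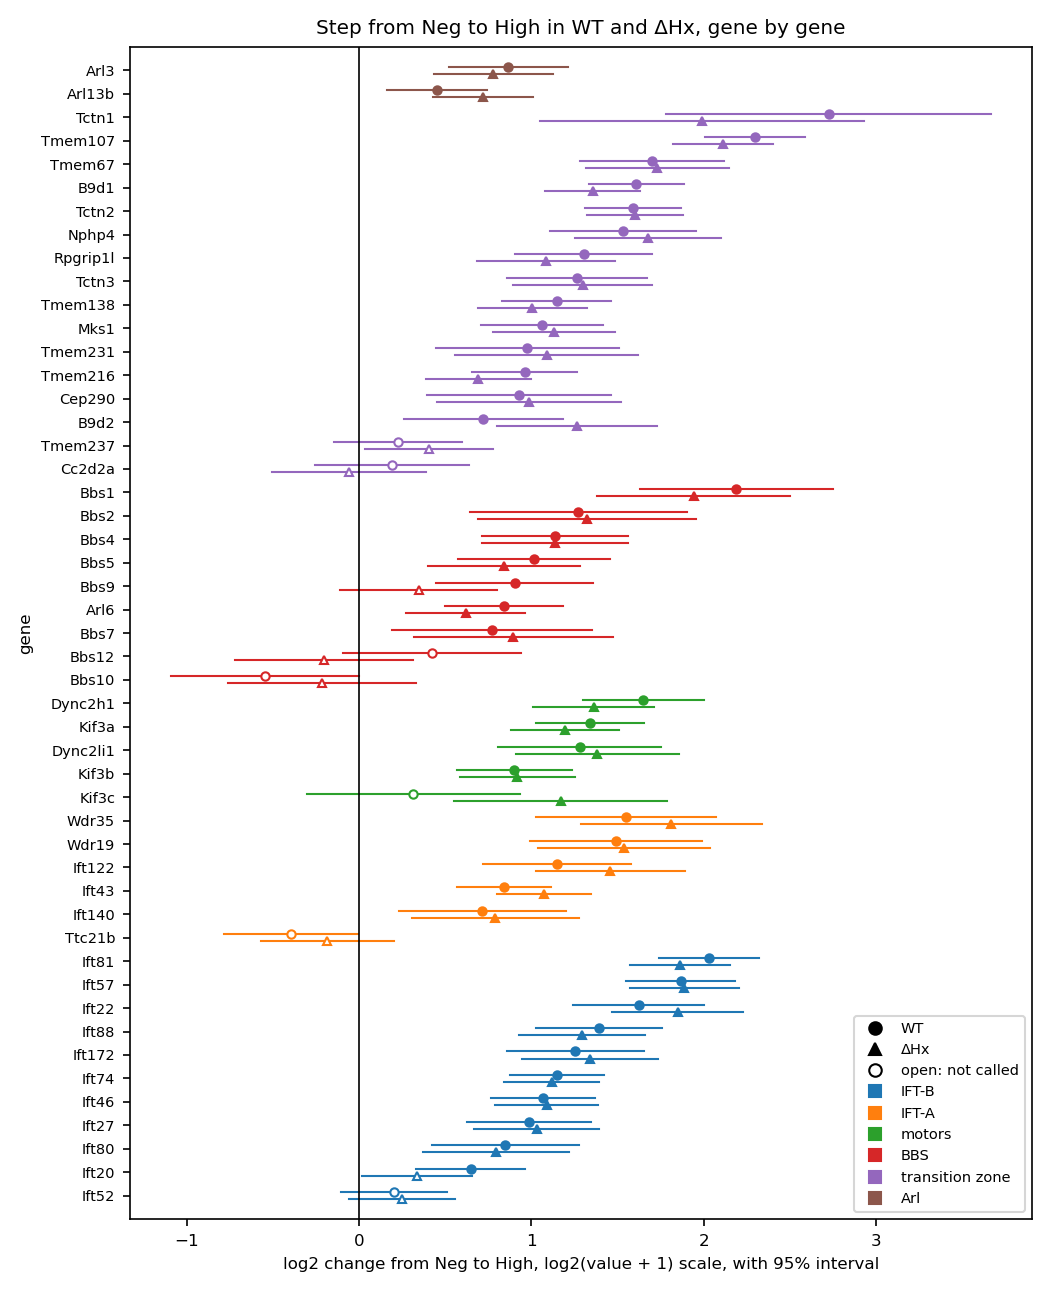
Log2 change from Neg to High of 49 of the 51 genes (rows, grouped by complex), as circles for WT and triangles for ΔHx, with 95% intervals and open symbols where the gene was not called. Most points of both genotypes lie right of 0, while Bbs10 and Ttc21b lie left of it in both.

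The ΔHx embryos gave a like count. In ΔHx, the step to High raised 43 genes and lowered 0, where 21.5% of all genes rose and 21.1% fell, with a median of 1.13 against 0.01 for all genes. The High and Neg libraries did not overlap for 45 genes, 45 higher (27.6% of all genes) and 0 lower (27.1%). Of the 51, 42 were called higher in both genotypes, as were 17.8% of all tested genes. Bbs9 and Ift20 were called in WT alone and Kif3c in ΔHx alone, and the difference between the genotypes passed for none of the 3 (adjusted p = 0.998 for each). Bbs10, Bbs12, Cc2d2a, Ift52, Tmem237 and Ttc21b were called in neither.

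Per kilobase of exon the genes differed widely in level, as mean normalised reads. In WT High they ran from 15.4 in Tctn1 to 744 in Ift74, with a median of 127, and in WT Neg from 2.52 to 332 in the same genes, with a median of 54.3. Within IFT-B the highest and the lowest gene per kilobase were Ift74 and Ift80, the latter at 67.4 in WT High and 37.0 in WT Neg. Ift80 was divided by 12428 exonic bases. Before that division its WT High mean of 838 was above that of Ift22, at 559. In the BBS group the highest gene was 9.82 times the lowest in High (Arl6 and Bbs7) and 24.2 times in Neg (Arl6 and Bbs1).

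The Mid gate was then set against the others. In WT, 10 genes rose from Neg to Mid and 1 fell, Tmem237, where 17.4% of all genes rose and 15.4% fell, so the share of members that rose was near that of all genes. Among the risen were Tctn1, Bbs1, Tmem107, Dync2h1, Tmem67, Bbs9, B9d1, Ift20 and Ift81. The median change of the 51 was 0.07, and it was -0.09 after quantile normalisation and -0.10 with libraries scaled to equal totals, a scaling that moved the median of all genes to -0.16. From Mid to High 40 rose and 0 fell in WT (12.1% and 12.4% of all genes), with a median of 1.04. The libraries of Mid and Neg did not overlap for 15 genes, 13 higher in Mid (22.1% of all genes) and 2 lower (22.5%). The largest called steps from Mid to High were in Nphp4, Wdr35, Ift57 and Tmem107, at 1.70 (SE 0.20), 1.66 (SE 0.25), 1.56 (SE 0.15) and 1.54 (SE 0.14). High and Mid did not overlap for 44 genes, all higher in High (17.9%, with 17.5% of all genes lower). The comparisons share libraries, so their counts are not independent.

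Among the larger called steps from Neg into Mid were those of Tmem107, Bbs1 and Tctn1. Tmem107 rose by 0.76 (SE 0.14, adjusted p = 0.000352) in WT and by 0.97 (SE 0.14, adjusted p = 3.04e-05) in ΔHx. Bbs1 rose by 0.86 (SE 0.27, adjusted p = 0.0182) in WT and 1.19 (SE 0.27, adjusted p = 0.00208) in ΔHx, and Tctn1 by 1.56 (SE 0.45, adjusted p = 0.012) in WT. In WT the call of Bbs1 ended without WT Mid replicate 1 or 2 or WT Neg replicate 3 (adjusted p = 0.0537, 0.101 and 0.0748). That of Tctn1 ended without WT Mid replicate 2 (adjusted p = 0.0548) or WT Neg replicate 3 (1.02, adjusted p = 0.0909). The fall of Tmem237 by 0.48 (SE 0.18, adjusted p = 0.0449) ended without WT Mid replicate 1 or 2 or WT Neg replicate 1 or 3.

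In ΔHx 12 genes rose from Neg to Mid and 3 fell, where 17.9% of all genes rose and 16.5% fell, with a median of 0.16 (-0.00 for all genes). Tmem67 rose by 0.81 (SE 0.20, adjusted p = 0.00417). The 3 that fell were Arl6, Bbs10 and Ttc21b. Arl6 was 400, 349 and 271 in ΔHx Mid against 587, 526 and 567 in ΔHx Neg, with no overlap, a fall by 0.73 (SE 0.16, adjusted p = 0.00198), and it was 953, 822 and 808 in ΔHx High. In WT it was 477, 362 and 504 in Mid and 455, 383 and 502 in Neg, which overlapped. The difference between these steps, -0.73, did not pass (SE 0.23, adjusted p = 0.691).

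Bbs10 was 99.6, 82.9 and 83.2 in ΔHx Mid against 164, 139 and 165 in ΔHx Neg, with no overlap, and it fell by 0.81 (SE 0.26, adjusted p = 0.0217). The call ended when ΔHx Mid replicate 2 or 3 or ΔHx Neg replicate 1 or 3 was left out (adjusted p = 0.0625 to 0.0673). Ttc21b was 369, 363 and 234 in ΔHx Mid and fell by 0.70 (SE 0.19, adjusted p = 0.00708), a call that ended without ΔHx Mid replicate 3 (adjusted p = 0.0536). The step from Mid to High in ΔHx raised 43 genes and lowered 0 (13.3% and 12.3% of all genes), with a median of 0.98. In ΔHx the libraries of Mid and Neg did not overlap for 15 genes higher in Mid (25.3% of all genes) and 3 lower (25.3%), and those of High and Mid for 43 higher in High (19.7%) and 0 lower (19.4%). Among them were Wdr35 (1.71, SE 0.25, adjusted p = 5.52e-05), Wdr19 (1.66, SE 0.24, adjusted p = 4.35e-05), Ift122 (1.60, SE 0.21, adjusted p = 1.33e-05) and Ift81 (1.52, SE 0.14, adjusted p = 2.99e-07). Ttc21b and Ift52, not called from Neg to High, were called higher from Mid to High in ΔHx, and Tmem237 was in both genotypes.

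**Figure D3:**
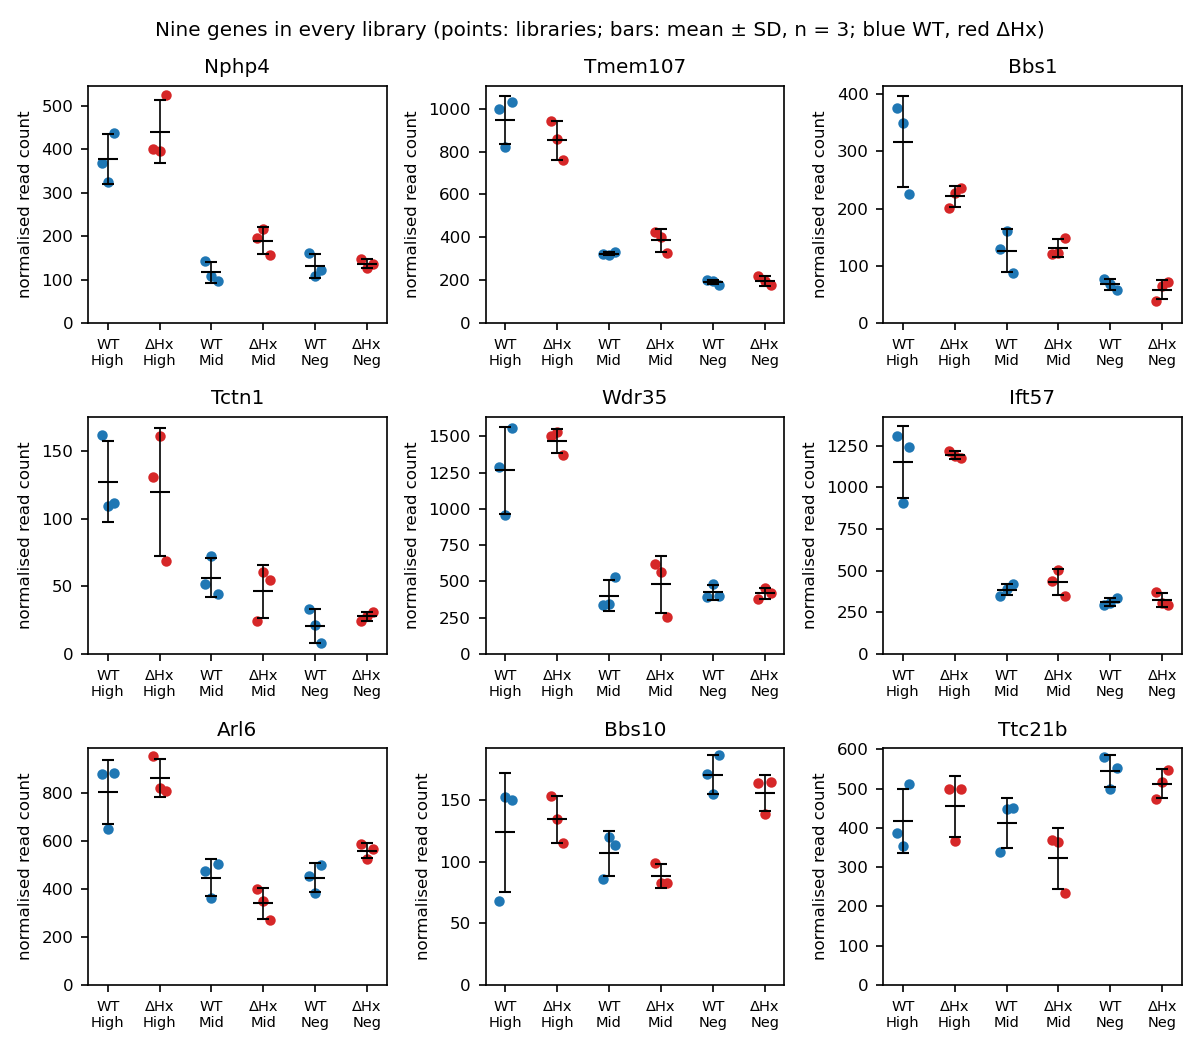
Normalised read counts of 9 genes in each library, by group, with WT in blue, ΔHx in red and bars for mean ± SD (n = 3). Tmem107 and Bbs1 step up from Neg to Mid to High, and Nphp4, Wdr35 and Ift57 step up chiefly at High. Bbs10 and Ttc21b are not raised in High over Neg. In ΔHx, where both fell from Neg to Mid, Ttc21b was called higher in High than in Mid.

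Over the 6 gate comparisons, 6 genes rose at every step in both genotypes, among them B9d1, Bbs1, Dync2h1, Tmem107 and Tmem67, where 2.28% of all tested genes did. In 37 genes both the step from Neg to High and that from Mid to High were called higher in both genotypes, a pattern found in 7.11% of all tested genes. Bbs12 and Cc2d2a were called in none of the 6. On the log2 scale, Mid lay at a median of 8.44% of the way from Neg to High over the 44 genes that rose in WT, and at 18.2% over the 43 in ΔHx. On the linear scale the medians were 5.56% and 10.8%.

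Motile cilium genes gave other values for Mid on the log2 scale. Of 30 tested genes of the motile axoneme, 29 rose from Neg to High in WT (22.6% of all genes), with a median log2 change of 5.34. From Neg to Mid 26 rose (17.4% of all genes), with a median of 2.41. Rsph4a, a radial spoke protein, was 659, 563 and 1129 in WT High, 53.4, 50.6 and 91.5 in WT Mid and 1.23, 2.03 and 0 in WT Neg. On the log2 scale Mid lay at a median of 47.4% of the step for the 29 genes that rose in WT and at 48.6% for the 29 in ΔHx. On the linear scale the medians were 10.3% in WT and 10.8% in ΔHx, and in ΔHx the transport and transition zone genes had the same 10.8%. Zmynd10, a factor of dynein arm assembly, was 897, 588 and 813 in WT High, 76.7, 86.9 and 88.1 in WT Mid and 1.23, 5.07 and 0 in WT Neg. The 51 transport and transition zone genes, by contrast, had reads in every library, the lowest value being 8.15 (Tctn1 in WT Neg replicate 3).

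Genes of the same machinery under other symbols were counted from a separate list. Of 17 remaining IFT, dynein-2 and BBS genes 13 rose from Neg to High in WT and 0 fell, with a median of 0.92. Of all tested genes 22.6% rose and 21.8% fell in that comparison. Ttc30b, an IFT-B subunit, was 662, 364 and 687 in WT High against 59.1, 43.6 and 38.0 in WT Neg, and rose by 3.54 (SE 0.29, adjusted p = 1.27e-08). It has near-identical copies, among which reads may be split. Kif17, another kinesin-2, was low, with 28.8, 16.4 and 26.6 in WT High and 2.46, 2.03 and 0 in WT Neg, and rose by 3.47 (SE 0.74, adjusted p = 0.000815). Of 14 tested further genes of the transition zone and inversin compartment, 5 rose and 0 fell, with a median of 0.50. Rpgr, a regulator at the cilium base, rose by 1.77 (SE 0.22, adjusted p = 2.08e-06), and Tmem218 and Tmem17 by 1.65 and 1.49.

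Of 18 basal body and centriole genes 6 rose and 1 fell (22.6% and 21.8% of all tested genes), with a median of 0.25. At an unadjusted p under 0.05 limma gave 38.9% of the 18, against 51.1% of all tested genes. Cep89, of the distal appendages, rose by 0.80 (SE 0.12, adjusted p = 3.64e-05), and Plk4, the kinase that starts centriole duplication, fell by 0.53 (SE 0.10, adjusted p = 0.000306). These medians stand beside 1.14 for the 51 genes and 0.02 for all genes, and no test of the lists against each other was made.

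**Figure D4:**
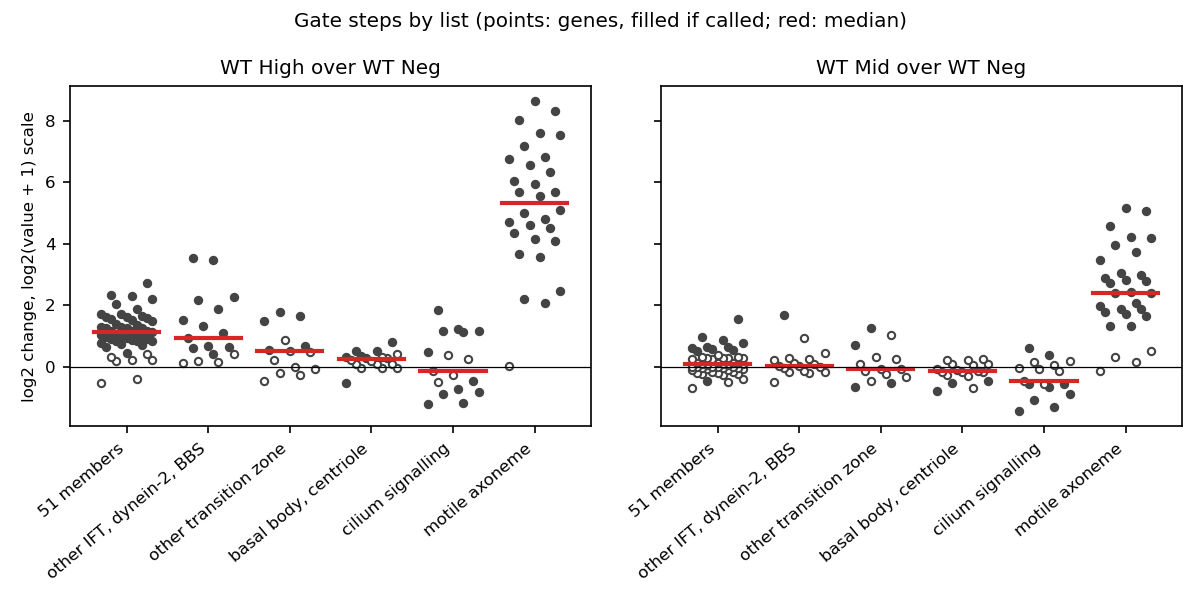
Log2 changes of single genes (points, filled where called) from Neg to High and from Neg to Mid in WT, for the 51 genes and 5 other lists, with medians in red. The motile axoneme genes are raised in both panels, while the 51 genes have a median of 1.14 on the left and 0.07 on the right.

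Regulators of ciliary genes moved in the same comparison. Of 9 tested, 6 were called higher in WT High than in WT Neg and 0 lower (22.6% and 21.8% of all genes). Foxj1, which drives the motile cilium programme, was 6367, 3824 and 5177 in WT High and 71.4, 8.11 and 21.7 in WT Neg. Rfx2 and Rfx3, RFX factors, rose by 4.63 (SE 0.35, adjusted p = 4.38e-09) and 2.10 (SE 0.17, adjusted p = 1.11e-08). Rfx3 was 2935, 1944 and 2137 in WT High, 917, 903 and 684 in WT Mid and 728, 474 and 449 in WT Neg, and it rose by 0.62 (adjusted p = 0.00888) from Neg to Mid. Noto, a node factor, rose by 8.81 from Neg to High.

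Cell type markers also moved with the gates. Of all tested genes 22.6% rose and 21.8% fell from Neg to High in WT, and 17.4% and 15.4% from Neg to Mid. All 12 node and notochord markers rose from Neg to High in WT, and their summed level was 39897 to 55724 in High, 9011 to 11760 in Mid and 2257 to 4171 in Neg. Of 10 visceral endoderm markers 7 rose in High, with sums of 3244 to 8244 in High, 37747 to 46277 in Mid and 1463 to 1627 in Neg. Of 8 parietal endoderm markers all rose in Mid, with sums of 38039 to 226747 in Mid and 7491 to 7924 in Neg. All 8 mesoderm markers fell in High, as did 4 of 6 blood markers (1 rose) and all 5 tested epiblast and neural markers. Hba-x, a blood marker, had no read in any High library, and Hbb-bh1 and Pax6 had none in WT Mid. The part of these mixtures in the values of the 51 genes was not tested.

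The remaining question was whether the helix deletion changed these genes within a gate. No member was called in any gate by limma. In the High gate 0 members rose and 0 fell, where 0.0612% of all genes rose and 0.0612% fell. The Mid gate also gave 0 and 0 (0.0748% and 0.326% of all genes), as did the Neg gate (0.136% and 0.109%). The median log2 change from WT to ΔHx over the members was 0.00 (High), 0.06 (Mid) and 0.03 (Neg). At an unadjusted p under 0.05 limma gave 1 of the 51 genes in High (1.96%, against 7.86% of all genes), 7 in Mid (13.7%, against 7.96%) and 2 in Neg (3.92%, against 4.17%). At that threshold edgeR on the recovered reads gave 2, 6 and 2 (7.82%, 7.86% and 3.91% of all genes) and DESeq2 2, 7 and 3 (8.86%, 8.58% and 4.44%), and neither edgeR nor DESeq2 called any after adjustment.

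The intervals set limits on a change. The 95% interval lay within 2-fold in either direction for 49 genes in High, for 47 in Mid and for 48 in Neg. Outside were Bbs1 and Tctn1 in High, Bbs7, Bbs12, Tctn1 and Nphp4 in Mid, and Kif3c, Bbs12 and Tctn1 in Neg. For Tmem107 in High the change was -0.15 (95% interval -0.44 to 0.14), for Ift57 0.07 (-0.25 to 0.38) and for Ift74 -0.03 (-0.31 to 0.24).

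Some genes came nearer the threshold than others. Nphp4 was 196, 217 and 156 in ΔHx Mid against 144, 108 and 97.6 in WT Mid, with no overlap, a change of 0.71 (SE 0.20, adjusted p = 0.203). The change was 0.22 in High and 0.08 in Neg. Ift46 had a positive change in each gate, of 0.39 (High), 0.33 (Mid) and 0.37 (Neg) (SE 0.14 each, adjusted p = 0.493, 0.57 and 0.936), with intervals of 0.09 to 0.69, 0.02 to 0.63 and 0.07 to 0.67. It was 1687, 1592 and 1231 in ΔHx High against 1099, 1055 and 1275 in WT High, which overlapped. Bbs1 was 201, 226 and 236 in ΔHx High against 375, 349 and 226 in WT High, also overlapping, with a change of -0.49 (interval -1.05 to 0.07). Bbs12 was 183, 212 and 135 in ΔHx Mid against 90.4, 150 and 98.5 in WT Mid, overlapping, with 0.65 (adjusted p = 0.446), and 175, 198 and 143 in ΔHx Neg against 116, 127 and 104 in WT Neg, apart, with 0.56 (interval 0.04 to 1.08). Arl6 in Mid, with its libraries given above, had a difference of -0.40 (interval -0.74 to -0.06, adjusted p = 0.506).

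Libraries of the genotypes did not overlap for 0 members in High, where 5.72% of all genes were higher in ΔHx and 5.20% lower. In Mid, 5 were higher in ΔHx (Kif3a, Bbs4, Tctn2, Nphp4 and Arl3, against 5.08% of all genes) and 0 lower (5.86%), and 7 in Neg did not overlap. Of the 7, Ift20, Bbs9, Bbs12 and Arl6 were higher in ΔHx (6.70% of all genes) and Kif3c, B9d2 and Arl13b lower (6.04%). The difference of the genotype effect between gates was called for 0 members in each of 3 tests by limma, edgeR and DESeq2. For High against Neg 0% of all genes passed in either direction, for Mid against Neg 0% and 0.00680%, and for High against Mid 0.0136% and 0%. At an unadjusted p under 0.05 limma gave 0, 3 and 1 of the 51 genes (0%, 5.88% and 1.96%), where it gave 3.15%, 4.32% and 6.13% of all genes. In the same order edgeR gave 1, 3 and 2 members (3.10%, 4.32% and 6.12% of all genes) and DESeq2 1, 3 and 2 (3.75%, 4.94% and 6.93%). Arl6 had the smallest p in the second and the third test, with differences of -0.73 (interval -1.22 to -0.25, adjusted p = 0.691) and 0.51 (0.02 to 0.99, adjusted p = 0.807).

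**Figure D5:**
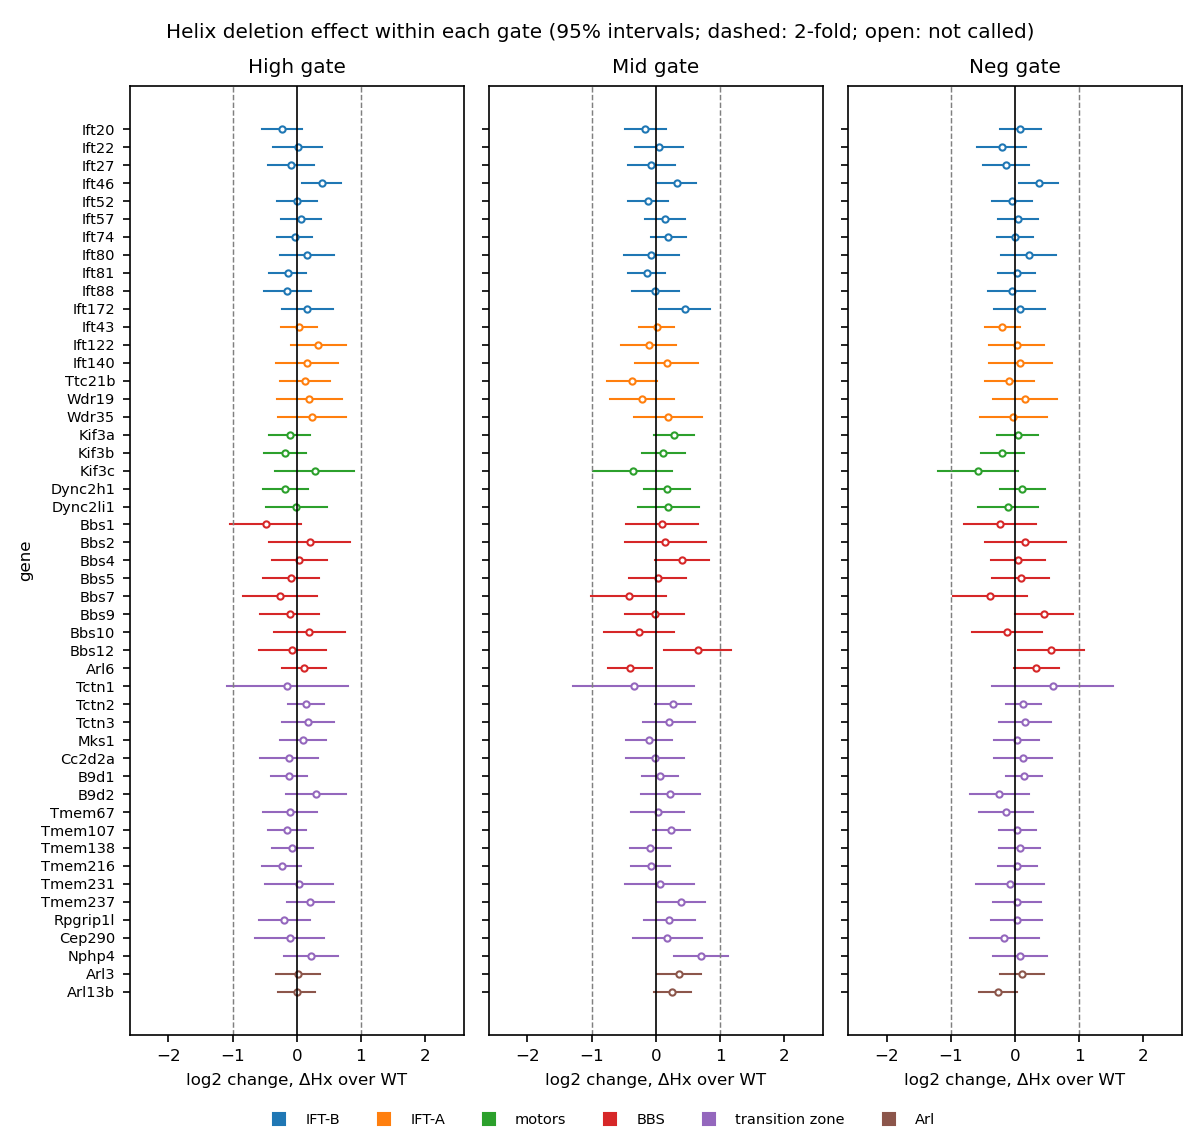
Log2 change from WT to ΔHx for 49 of the 51 genes in the High, Mid and Neg gates, with 95% intervals. No gene was called, and most intervals lie between the dashed lines at 2-fold.

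Other values differed between the genotypes beside these. Of 8 parietal endoderm markers 7 were lower in ΔHx Mid than in WT Mid, and the marker sums were 15746 to 21522 against 38039 to 226747. Also in Mid, the node marker Nog was lower in ΔHx, and the blood marker Hbb-bh1 and the neural marker Pax6 were higher. In High, 1 of 8 mesoderm markers, Dll1, was higher in ΔHx, and the mesoderm sums were 2089 to 2231 against 969 to 1853. In Neg, 2 of 30 motile axoneme genes, Rsph4a and Zmynd10, were higher in ΔHx than in WT, as were 2 of 12 node markers, Shh and Nodal. Xist, expressed from the inactive X chromosome, had a lower mean in ΔHx in every gate: 1600 ± 212 against 3613 ± 1428 in High, 2758 ± 490 against 4861 ± 3134 in Mid and 1414 ± 561 against 2433 ± 844 in Neg (SD, n = 3). The Y-linked gene Eif2s3y had a higher mean in ΔHx in every gate: 478 ± 79.4 against 261 ± 38.0 in High, 387 ± 18.8 against 192 ± 80.5 in Mid and 555 ± 113 against 298 ± 77.9 in Neg. The pooled embryos were not sexed. Their part in the genotype values of the 51 genes was not tested.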

How the data were processed

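Per the labels' protocols, RNA equal to 1000 cells, from 2500 to 5000 sorted cells, entered an unstranded SMART-Seq2 library that was read from 1 end for 75 bases. The values deposited are a signal per gene, namely reads over a library's size factor. The submitters' processing notes name the build mm10, STAR 2.5.2a, HTSeq 0.6.1, DESeq and DESeq2; which annotation was counted on is not stated in them. All 440964 gene values were whole reads within 1e-06, with 1 read worth 0.825 to 1.37. The 5 counter lines, which held no gene, stayed out of tests: reads without a feature were 7.17% to 12.1% of everything counted, those matching several genes 0.495% to 0.756%, and alignments that were not unique 37.7% to 41.3%. No replicate was a copy of another, the chi-square of a pair being 5.12 to 105 per degree of freedom.

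limma 3.58.1 (R 4.3.3) with a variance trend was fitted to log2(value + 1) of 14711 genes, in 1 model of 6 group means over 18 libraries. Tests were two-sided. The values of 2 members are not reported singly here; the counts, sums and medians include them. A simulation of WT High against WT Neg recovered 60 of 100 genes changed 2-fold and 88 of 100 changed 4-fold, with 0 in the wrong direction. Of its 159 calls, 11 were of unchanged genes. A missing call alone therefore does not exclude a 2-fold change. Members and lists were chosen with earlier results of these data known. Every library's values are given for up to 4 members with the largest called changes per direction and gate comparison (mean of at least 20, groups apart), for some of the 3 smallest p per genotype test, and for the highest and lowest mean; other lists give up to 3 genes with the largest called changes. Uncalled members, Ift81, Dync2h1, Xist, Eif2s3y and the markers called between genotypes were detailed after their values were seen. Exon lengths, overlaps and positions are from GENCODE vM21. Replicate numbers were not used as pairs. The labels call replicates biological without naming separate litters, so p-values measure the spread between these samples. Alternatives were other pseudocounts, filters and scalings, the compared groups alone, a replicate block (also within genotype), edgeR 4.0.16 and DESeq2 1.42.0 on the recovered reads, and each library left out in turn.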

Additional observations from a re-analysis of the deposited data

How the results depend on the processing

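The counts of genes that rose from Neg or Mid to High stayed within 1.5 times of those given under every alternative. The count that fell from Neg to High in WT was 0, and 1 after quantile normalisation. From Neg to Mid in WT, 10 genes rose, and 6 did after quantile normalisation and with equal totals. The 1 fall there became 0 with no filter, with equal totals without Rn45s, with the replicate block and in edgeR, and 2 with a filter at 50, after quantile normalisation, with equal totals and in DESeq2. In ΔHx 12 rose from Neg to Mid, and 7 with equal totals. The cause was not tested. With each library left out in turn, the rises from Neg to High were 41 to 44 in WT (falls 0 to 2) and 42 to 45 in ΔHx (falls 0 to 0), those from Mid to High 39 to 42 and 36 to 42, and those from Neg to Mid 7 to 10 (falls 0 to 1) and 10 to 15 (falls 1 to 4). Genotype counts stayed at 0 to 0. Of 486 refits of 27 named results that were called, 474 kept the call, 12 lost it and 0 reversed, and 18 named genotype results that were not called stayed so in all 369 refits. The 27 were picked as the largest called changes with groups apart. The share that held therefore does not describe other calls, such as the fall of Tmem237. Besides those given above, Bbs1 lost its WT Neg to Mid call after quantile normalisation (adjusted p = 0.0837) and with the compared groups alone (adjusted p = 0.0517). Equal totals without Rn45s moved the median of all genes from Neg to High to 0.13 in WT, and that of the 51 genes to 1.25.

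The replicate number was also tried as a block. Among pairs of libraries with equal numbers, all 18 within a genotype had positively correlated deviations (0.016 to 0.29), 5 of them above 0.1, and the 27 between genotypes ranged from -0.17 to 0.082. Of the 27, 13 were positive and 0 exceeded 0.1. The labels tie the numbers to nothing, so they were not taken as pairs in the main tests. Whether libraries with equal numbers within a genotype shared a source was not tested. Of 18 libraries 10 correlated best with their own number. With the replicate block 44 genes rose from Neg to High in WT and 43 in ΔHx, 40 and 41 from Mid to High, and 10 and 11 from Neg to Mid, with 0 and 3 falls. A replicate block within each genotype, chosen after seeing the data, gave 44 and 44, 43 and 43, and 11 and 16 rises, with 2 and 3 falls from Neg to Mid, and 0 calls for the difference of the genotype effect between gates; the genotype comparisons within a gate cannot be fitted with it. Among the genes with wide intervals were Tctn1 and Kif3c, with means over all libraries of 66.5 and 116 normalised reads.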

Other observations

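Genes of Hedgehog and other signalling at the primary cilium did not move as 1 group. Of 17 tested, 6 rose and 6 fell from Neg to High in WT (22.6% and 21.8% of all genes), with a median log2 change of -0.14. From Neg to Mid in WT 2 rose and 7 fell (17.4% and 15.4% of all genes). Gli3, a Hedgehog transcription factor, was 504, 400 and 355 in WT High, 338, 409 and 409 in WT Mid and 987, 910 and 1001 in WT Neg, a fall by 1.22 (SE 0.16, limma adjusted p = 3.9e-06) from Neg to High. Iqce, an anchor of the Evc complex above the transition zone, was 631, 465 and 527 in WT High against 166, 167 and 121 in WT Neg, and rose by 1.83 (SE 0.20, adjusted p = 5.73e-07). Gas8, a protein of the dynein regulatory complex, rose by 1.21 (SE 0.13, adjusted p = 2.73e-07). In ΔHx 6 rose and 4 fell from Neg to High (21.5% and 21.1% of all genes), with a median of 0.45. The sign of the median thus differed between the genotypes, while 0 of the 17 were called between genotypes in any gate.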
